A study of Mus musculus with 117 samples.

Results

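MHC class II presentation was followed through 10 genes: Cd74, H2-Aa, H2-Ab1, H2-Eb1, H2-Ea, H2-DMa, H2-DMb1, H2-Oa, Ciita and Ctss. Every probe set that the platform annotation assigns to just 1 of these symbols was taken, which gave 15 of the 36701 probe sets on the 3 array designs (A, B and C) once controls were left out. The 10 genes stand among 15964 genes with such a probe set. One further probe set, annotated to H2-DMb2 and H2-DMb1 together, was left out because its symbols cannot be separated.

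The glands came from female mice of 2 immunodeficient strains, B6.CB17-Prkdc scid/SzJ (B6-scid) and NOD.CB17-Prkdc scid/J (NOD-scid), each carrying the scid mutation of Prkdc. Pancreas was taken at 6 weeks, submandibular gland at 9 weeks and again at 15 weeks, and lacrimal gland at 15 weeks. Each of the 8 groups held 5 individual mice, except NOD-scid lacrimal gland with 4, so 39 gland samples were each hybridised to 3 Affymetrix arrays, 117 in all. The submandibular glands had been freed of sublingual gland, connective tissue and fat, according to the labels. The labels do not say whether the 15-week submandibular and lacrimal samples came from the same mice, and pancreas was sampled at an age of its own, so tissue and age cannot be told apart there.

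Class II molecules are pairs of an alpha and a beta chain that show peptides from engulfed protein to CD4 T cells. The invariant chain, encoded by Cd74, fills the groove of newly made molecules; cathepsin S (Ctss) trims it, the H2-DM dimer exchanges the remaining fragment for peptide, H2-O restrains H2-DM, and Ciita switches the genes on. In most tissues the genes are used mainly by dendritic cells, macrophages and B cells, with some epithelia joining under interferon gamma. Scid mice fail to complete antigen receptor rearrangement, so mature B and T cells are largely missing. C57BL/6 and NOD mice carry different H2 haplotypes, and neither makes a working H2-E alpha chain; an allelic difference under a probe can change its signal without a change in RNA, which was not tested.

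**Figure D1:**
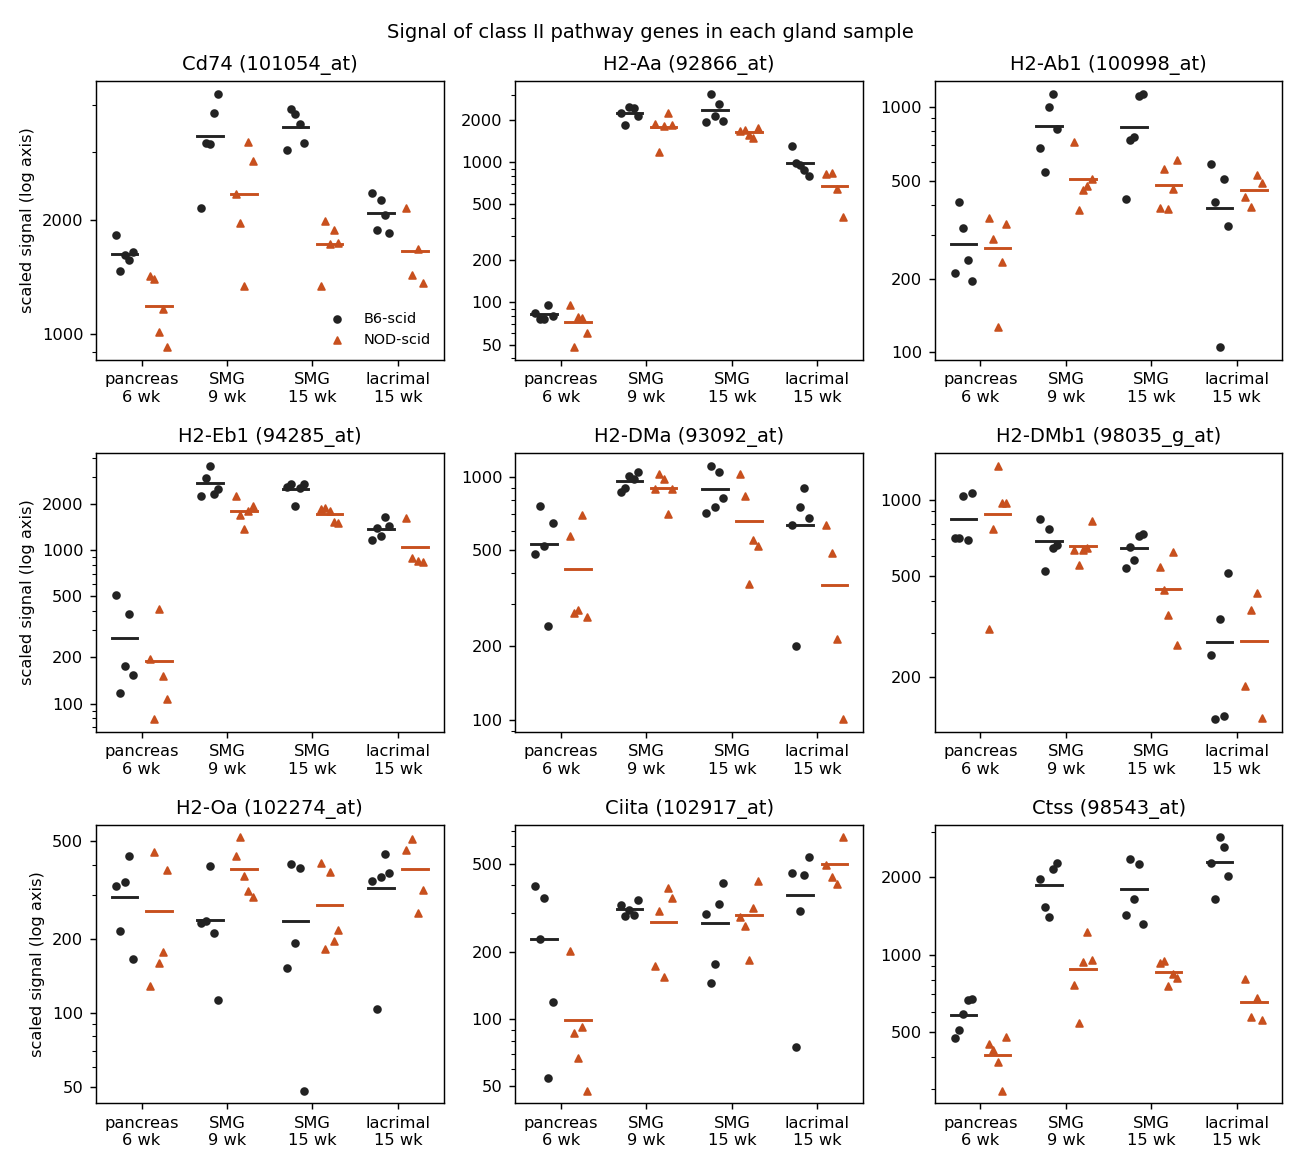
Scaled signal (arbitrary units, log axis) of the representative probe set of 9 genes in each of the 39 gland samples, by gland and age (SMG, submandibular gland). Circles are B6-scid and triangles NOD-scid samples, and short lines are group means; the Ctss triangles lie below the Ctss circles in both submandibular groups and in lacrimal gland, and the H2-Aa signals of pancreas are all under 100.

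The promoters of the class II genes share a short module on which Ciita acts, made of an X box followed by a Y box. RefSeq windows (build GRCm38.p6) matched 6 of the 10 genes: Ctss, H2-Oa, H2-DMa, H2-DMb1, H2-Aa and H2-Eb1. The 120 bases before the annotated start of 4 of them are shown because 3 (H2-Aa, H2-Eb1 and H2-DMb1) were lower together in the lacrimal gland of B6-scid mice and Ctss differed most between the strains; they are letters of the C57BL/6J reference and not of NOD. Capitals mark matches to CTNGNAAC (X), GATTGG (Y) or GAAA followed after any 2 bases by GAAA (the core of an interferon-stimulated response element), searched on both strands over 250 bases before the start; these letters were chosen after the sequences had been read, and no marked motif overlaps another.
H2-Aa, chr17:34287824-34287943, minus strand: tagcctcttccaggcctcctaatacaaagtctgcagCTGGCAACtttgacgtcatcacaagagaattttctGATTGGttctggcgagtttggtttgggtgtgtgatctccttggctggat
H2-Eb1, chr17:34305747-34305866, plus strand: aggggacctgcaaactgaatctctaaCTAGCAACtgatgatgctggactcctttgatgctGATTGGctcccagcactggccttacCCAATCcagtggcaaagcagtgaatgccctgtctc
H2-DMb1, chr17:34153071-34153190, plus strand: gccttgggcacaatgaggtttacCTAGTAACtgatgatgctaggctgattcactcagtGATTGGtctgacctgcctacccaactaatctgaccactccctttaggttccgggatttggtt
Ctss, chr3:95526666-95526785, plus strand: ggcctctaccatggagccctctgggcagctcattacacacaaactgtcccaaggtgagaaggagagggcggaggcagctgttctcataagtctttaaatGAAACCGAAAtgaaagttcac

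H2-Aa, H2-Eb1 and H2-DMb1 each held the X letters followed by the Y letters on the strand of the gene, an order present in 84 of 32851 windows (0.256%). The X letters were in 10.9% of the windows and the Y letters in 14.6%. H2-Eb1 held the Y letters a second time, on the opposite strand (CCAATC). The Ctss window held neither, but had GAAACCGAAA from 21 to 12 bases before its start, and 2.98% of all windows hold a match to that pattern. H2-Oa and one of the H2-DMa windows had the Y letters alone. A match describes letters and is not a measured site.

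A few samples stood apart from the rest of their group. Acinar enzyme transcripts summed to between 1593990 and 2103450 in pancreas, and to 199349 in the first NOD-scid submandibular sample of 9 weeks against 24944 or less in every other submandibular or lacrimal sample. Salivary transcripts summed to 490910 and 466857 in B6-scid lacrimal samples 2 and 3 against 119849 to 135967 in the other 3. In NOD-scid lacrimal gland they summed to 203164 in sample 4 and to 111228 to 123029 in the others. In pancreas the same sum was 155031 to 203012 in B6-scid and 116182 to 163749 in NOD-scid. Lacrimal sums near these values thus do not by themselves show salivary tissue. The samples called salivary-rich below are B6-scid lacrimal samples 2 and 3. The ratio of 3 prime to 5 prime Actb signal, a measure of RNA integrity, reached 4.34 in B6-scid submandibular sample 4 of 9 weeks, with 2.76 in B6-scid sample 5 and 2.87 in NOD-scid sample 4 of that age. In pancreas the ratio moved with strain: it was 1.86, 2.33, 3.08, 2.71 and 2.74 in B6-scid and 1.99 to 2.08 in NOD-scid, so that 4 of the 5 B6-scid samples lay above every NOD-scid one. Calls of class II genes that rest on samples standing apart are given with and without them.

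All results below are on the scaled signal (each array's trimmed mean set to 500); a difference is in log2 of the signal plus 32, tested with limma and adjusted over all probe sets that reached 100 on at least 4 arrays of the fit, and a probe set passed the test at an adjusted p under 0.05. Signals of different probe sets were not compared with each other. In whole glands, fewer cells of a type and less RNA per cell cannot be told apart.

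The strongest strain difference among the class II genes was in Ctss, whose product, cathepsin S, is a lysosomal protease of antigen-presenting cells. In lacrimal gland the 5 B6-scid samples read 2266, 1640, 2851, 2613 and 2014 and the 4 NOD-scid samples 802, 572, 677 and 559. No sample of one strain reached the range of the other. The mean fell from 2277 ± 479 (SD, n = 5) to 652 ± 113 (SD, n = 4), a log2 difference of -1.74 (SE 0.20, limma adjusted p = 0.00362). Ctss was the 1 probe set called of the 13 tested, where 1.19% of all 27686 probe sets tested were called, 0.668% as lower. Without the 2 salivary-rich B6-scid samples the difference was -1.77 (adjusted p = 0.0108). With each lacrimal sample left out in turn, NOD-scid sample 4 among them, it lay between -1.85 and -1.66 (largest limma adjusted p = 0.0168). The call was lost with the replicate number as a block (limma adjusted p = 0.0795).

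Submandibular gland showed a Ctss difference of the same sign at both ages. At 9 weeks the B6-scid samples read 1958, 1526, 1393, 2149 and 2265, and the NOD-scid samples 760, 543, 935, 1220 and 950, with no overlap. The difference was -1.07 (SE 0.21, limma adjusted p = 0.0132) and Ctss was the 1 probe set called of 14, where 1.12% of all 32136 probe sets tested were called, 0.625% as lower. Without the first NOD-scid sample, which was rich in acinar transcripts, it was -1.03 (adjusted p = 0.0358), and without the 4 samples numbered 4 and 5, among them those of high Actb ratio, -1.11 (adjusted p = 0.0478). At 15 weeks B6-scid read 1425, 2359, 1647, 2248 and 1312 and NOD-scid 924, 945, 755, 840 and 811, again with no overlap, and the difference was -1.01 (SE 0.21, adjusted p = 0.0269). Fitted on the 2 groups of 9 weeks alone, the 9-week call was lost (limma adjusted p = 0.0987). The 15-week call was lost when any 1 of 7 samples was left out, B6-scid 2, 3 or 4 or NOD-scid 1, 3, 4 or 5 (largest adjusted p = 0.101), with the difference between -1.11 and -0.90 over all the samples left out in turn.

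In pancreas the Ctss signals were low in both strains, 476 to 670 in B6-scid and 296 to 478 in NOD-scid. The ranges overlapped slightly and the difference, -0.49 (SE 0.17), did not pass (limma adjusted p = 0.313). With the Actb ratio as a covariate, which is higher in most B6-scid pancreas samples, it was -0.30 (adjusted p = 0.760). Over the 8 groups the Ctss means ran from 2277 in B6-scid lacrimal gland, through 1858 and 1798 in B6-scid submandibular gland at 9 and 15 weeks, to 882, 855 and 652 in the 3 NOD-scid groups of those glands, and then to 581 and 407 in B6-scid and NOD-scid pancreas. Ranges of neighbours in this order overlapped except between B6-scid submandibular gland at 15 weeks and NOD-scid submandibular gland at 9 weeks. The lacrimal difference minus the submandibular one of 15 weeks was -0.73 (SE 0.27), which did not pass (limma adjusted p = 0.355) in the fit of the 4 groups of 15 weeks.

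**Figure D2:**
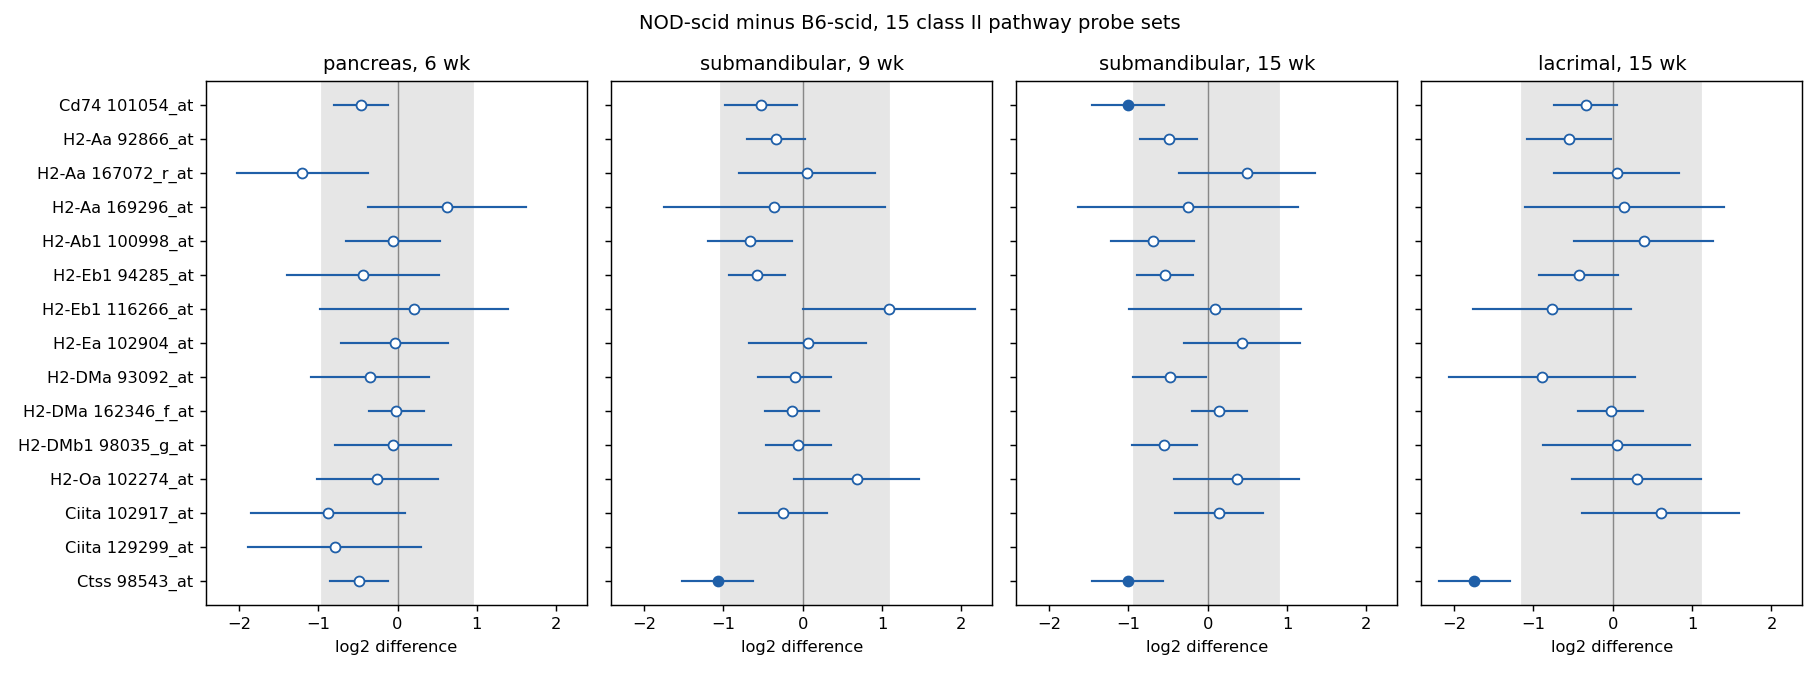
Difference between NOD-scid and B6-scid (log2, horizontal axis) for the 15 probe sets in each gland, with 95% intervals; filled circles passed the test, a missing row was not tested, and the grey band holds the central 95% of all probe sets tested in that comparison. Ctss is filled in both submandibular panels and the lacrimal panel, Cd74 in the 15-week submandibular panel, and no probe set in pancreas.

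Cd74, the invariant chain, was lower in the submandibular gland of NOD-scid mice at the later age, one of 2 probe sets called of 14 there, where 0.594% of all probe sets were called, 0.37% as lower. B6-scid samples read 3046, 3894, 3774, 3562 and 3166, and NOD-scid samples 1336, 1985, 1722, 1875 and 1734. Every NOD-scid sample lay below every B6-scid sample. The mean was 3489 ± 371 (SD, n = 5) against 1730 ± 245 (SD, n = 5), a difference of -1.004 (SE 0.22, limma adjusted p = 0.0309). The call was lost when any 1 of 8 of the 15-week samples was left out, B6-scid 2, 3, 4 or 5 or NOD-scid 1, 3, 4 or 5 (largest adjusted p = 0.105), and also with 1 variance prior for the 3 array designs, where both 15-week calls were lost (0.0648 for Cd74 and 0.0565 for Ctss).

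At 9 weeks the Cd74 samples overlapped: 2146, 3167, 3149, 3793 and 4274 in B6-scid, and 2328, 1960, 1344, 3199 and 2848 in NOD-scid. The difference, -0.52 (SE 0.22), did not pass (limma adjusted p = 0.354; 0.266 without the samples numbered 4 and 5), nor did that of lacrimal gland, -0.34 (SE 0.18, adjusted p = 0.439). In pancreas the samples were apart, 1469 to 1823 in B6-scid and 926 to 1427 in NOD-scid, yet the difference of -0.46 (SE 0.15) did not pass (limma adjusted p = 0.308). Over the 8 groups the Cd74 mean was highest in the B6-scid submandibular groups (3489 at 15 weeks and 3306 at 9 weeks) and lowest in NOD-scid pancreas (1187). Of the 7 steps between neighbours in that order, just the last, between the 2 pancreas groups, separated ranges that did not overlap.

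H2-Aa, the alpha chain of the H2-A molecule, had almost no pancreas signal on its design A probe set. There it read 76.2 to 96.3 in B6-scid and 47.9 to 95.6 in NOD-scid, under the minimum of 100 in all 10 samples, so it was not tested. In submandibular gland it read 1853 to 2475 at 9 weeks and 1937 to 3083 at 15 weeks in B6-scid. The NOD-scid samples read 1189 to 2249 and 1498 to 1745. The 15-week ranges did not overlap, but the difference of -0.49 (SE 0.17) did not pass (limma adjusted p = 0.397). At 9 weeks the difference was -0.33 (SE 0.17, adjusted p = 0.486) and in lacrimal gland -0.55 (SE 0.24, adjusted p = 0.344).

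H2-Eb1, the beta chain of the H2-E molecule, ran in parallel on its design A probe set. It read 2244 to 3557 in B6-scid and 1363 to 2243 in NOD-scid submandibular gland at 9 weeks, and 1949 to 2715 against 1499 to 1889 at 15 weeks. Neither pair of ranges overlapped, though at 9 weeks the highest NOD-scid sample (2243) lay next to the lowest B6-scid one (2244). The differences of -0.58 (SE 0.17, limma adjusted p = 0.121) and -0.54 (SE 0.17, adjusted p = 0.277) did not pass. In pancreas the range was 118 to 511 in B6-scid and 79.4 to 413 in NOD-scid, a difference of -0.43 that was -0.84 with the Actb ratio as a covariate (adjusted p = 0.751). Across the 8 group means H2-Aa and H2-Eb1 had a Pearson correlation of 0.995, with gland and strain shared by both, and within groups the correlation over the 39 samples was 0.30.

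H2-Ab1 encodes the H2-A beta chain. B6-scid submandibular samples read 684, 543, 998, 1134 and 811 at 9 weeks and 423, 738, 755, 1105 and 1128 at 15 weeks. NOD-scid samples read 724, 379, 460, 477 and 508 at 9 weeks and 389, 559, 385, 464 and 609 at 15 weeks. The strains overlapped at both ages, with differences of -0.66 (SE 0.25, limma adjusted p = 0.288) and -0.69 (SE 0.25, adjusted p = 0.439). The lacrimal difference pointed the other way, 0.39 (SE 0.39, adjusted p = 0.713), and the pancreas one was -0.06 (SE 0.27, adjusted p = 0.972). Without the 2 salivary-rich B6-scid samples the lacrimal difference was -0.011, and without the samples numbered 4 and 5 the 9-week difference was -0.49 (limma adjusted p = 0.580).

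H2-Ea, whose protein neither strain makes, gave 13.0 to 228 over the 39 samples and reached 100 in 15 of them. No group of H2-Ea signals stood apart from another strain's in any gland, and no comparison that tested it passed. Probe sets of H2-Aa and H2-Eb1 on the other designs differed in part from those of design A. One H2-Aa probe set of design C read 284 to 831 in B6-scid and 91.8 to 279.8 in NOD-scid pancreas, with no overlap and a difference of -1.20 (SE 0.38, limma adjusted p = 0.247). At 15 weeks in submandibular gland it gave 0.49 (SE 0.41), where design A gave -0.49. The other H2-Aa probe set of design C reached 100 in 23 of 39 samples. The H2-Eb1 probe set of design B gave 1.09 (SE 0.52, adjusted p = 0.427) at 9 weeks, opposite in sign to that of design A, and this rested on signals of 25.1 to 306 in B6-scid and 31.3 to 537 in NOD-scid.

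The loading genes showed no strain call. H2-DMa and H2-DMb1, which together exchange peptide in the groove, had differences of -0.48 (SE 0.22) and -0.55 (SE 0.20) at 15 weeks in submandibular gland (limma adjusted p = 0.691 and 0.428). Both had a difference close to 0 at 9 weeks, -0.10 (SE 0.22) and -0.05 (SE 0.20). In lacrimal gland H2-DMa read 636, 201, 749, 896 and 677 in B6-scid and 633, 486, 215 and 101 in NOD-scid, which overlap (-0.89, SE 0.53, adjusted p = 0.493). H2-Oa, a chain of the H2-O regulator, had a difference of 0.68 (SE 0.38, adjusted p = 0.524) at 9 weeks in submandibular gland and between -0.25 and 0.37 elsewhere. The second H2-DMa probe set read between 83.6 and 237 in the 39 samples. Unlike those of Ctss and Cd74, the H2-DMb1 means over the 8 groups were highest in pancreas (874 in NOD-scid, 838 in B6-scid). They were lowest in lacrimal gland (279 and 275), and ranges of neighbours in this order all overlapped. The second H2-DMa probe set also had its highest means in pancreas (182 in B6-scid, 180 in NOD-scid), whereas the first did not.

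Ciita, the transactivator, was called in no comparison. In NOD-scid submandibular gland of 15 weeks it read 288, 262, 185, 315 and 420.5, against 299, 145, 177, 331 and 409 in B6-scid, ranges that overlap (0.14, SE 0.27, 95% interval -0.42 to 0.70). In lacrimal gland the group means were 499 in NOD-scid and 363 in B6-scid (0.60, SE 0.44, adjusted p = 0.595). In pancreas B6-scid samples ran from 54.3 to 396 and NOD-scid samples from 47.8 to 202 (-0.87, SE 0.44, adjusted p = 0.562). Its probe set on design C reached 100 in 9 of 39 samples. Ciita lies on the same chromosome as Prkdc, and whether it lies on the transferred scid segment was not tested.

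In pancreas none of the 14 tested class II probe sets passed with limma, against 0.647% of all 28733 tested; at an unadjusted p under 0.05 the count was 3 lower (Cd74, Ctss and H2-Aa on design C) and 0 higher, where 5.05% of all probe sets reached that level as lower. At 9 weeks in submandibular gland 4 were lower at that level (Ctss, H2-Eb1, H2-Ab1 and Cd74; 5.23% of all probe sets) and 1 higher (H2-Eb1 on design B; 6.33%). At 15 weeks 7 were lower (Ctss, Cd74, H2-Eb1, H2-Aa, H2-DMb1, H2-Ab1 and H2-DMa; 3.61%) and 0 higher, and in lacrimal gland 2 were lower (Ctss and H2-Aa; 6.79%) and 0 higher. The members with non-overlapping samples, all lower in NOD-scid, numbered 2 in pancreas, 2 in submandibular gland at 9 weeks, 4 at 15 weeks and 1 in lacrimal gland. The shares of all probe sets lower without overlap were 1.57%, 1.02%, 1.54% and 3.21%. The median difference of the tested members was -0.30, -0.19, -0.36 and -0.03 in the same order, beside 0.02, 0.03, 0.01 and 0.02 over all probe sets tested.

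No class II probe set passed the test between ages in submandibular gland. The mean correlation of each sample with its group moved with age there. On design A it was 0.904 to 0.923 at 9 weeks and 0.935 to 0.954 at 15 weeks. On design B it was 0.744 to 0.803 and 0.845 to 0.878, and on design C 0.699 to 0.786 and 0.828 to 0.855. The part of array quality in the age comparisons was not tested. Between 9 and 15 weeks limma called 0 of 14 probe sets in B6-scid, against 1.22% of all probe sets, and 0 of 14 in NOD-scid, against 0.977%. At an unadjusted p under 0.05 there were 1 higher in B6-scid (7.99% of all probe sets) and 2 lower in NOD-scid (7.31%). Those 2 were H2-DMb1 (-0.58, SE 0.20, adjusted p = 0.175) and H2-DMa (-0.51, SE 0.22, adjusted p = 0.292). For Cd74 the change with age was 0.11 (95% interval -0.35 to 0.56) in B6-scid and -0.38 (-0.83 to 0.08) in NOD-scid. The strain difference of Cd74 at 15 weeks minus that at 9 weeks was -0.48 (SE 0.31, adjusted p = 0.999). With limma 0 of the 32136 probe sets (0%) passed that interaction test, and an unadjusted p under 0.05 was reached by 0 of the 14 members and by 4.99% of all probe sets.

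Some markers of gland tissue fell with age. Of 10 markers of pancreas acinar cells, 2 were called lower at 15 weeks in B6-scid (Prss2 and Cela1, digestive proteases) and 3 in NOD-scid (Cpa1, Cela1 and Prss2), and none higher. Their summed signal went from 4961 to 18777 at 9 weeks to 2849 to 3682 at 15 weeks in B6-scid, and from 11959.6 to 199349 to a range of 3591 to 11272 in NOD-scid. The NOD-scid Prss2 call was lost when any 1 of 17 of the 20 samples was left out (largest adjusted p = 0.114), and the B6-scid Obp1a call given next when any 1 of 5 was (largest 0.0827). Of 6 genes of the lacrimal list, 2 were called lower in each strain, Obp1a and Scgb1b27. Scgb1b27 did not mark lacrimal gland here. At 15 weeks it averaged 67623 in submandibular and 17455.5 in lacrimal gland of B6-scid, and 71434 and 4789 in NOD-scid. Obp1a, an odorant-binding protein, averaged 15705 ± 11496 at 9 weeks and 44.7 ± 70.3 at 15 weeks in NOD-scid (SD, n = 5 each). Of 10 submandibular markers, 2 were called lower in B6-scid (Mucl2 and Klk1) and 3 in NOD-scid (also Prol1). None of the 5 submandibular calls passed with quantile normalization, nor did the Scgb1b27 calls. The part of these tissue markers in the age comparisons was not tested.

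Between the glands at 15 weeks more of all probe sets were called than between strains, and in B6-scid mice more class II ones. These comparisons share the 15-week samples with the strain comparisons above. In B6-scid mice 5 of 14 class II probe sets were lower in lacrimal than in submandibular gland and none was higher, against 11.4% of all probe sets that passed in either direction and 6.14% that passed as lower. H2-Aa went from 2344 ± 491 to 986 ± 190 (SD, n = 5 each), a difference of -1.22 (SE 0.19, limma adjusted p = 2.82e-04). H2-DMb1 changed by -1.28 (SE 0.33), H2-Ab1 by -1.13 (SE 0.33), H2-Eb1 by -0.85 (SE 0.18) and Cd74 by -0.74 (SE 0.15). H2-Eb1 did not pass in 1 fit of all 39 samples (limma adjusted p = 0.0527). The samples of the 2 glands did not overlap for H2-Aa, H2-Eb1, H2-DMb1 and Cd74, 4 probe sets in all, beside 5.43% of all probe sets. Without the 2 salivary-rich lacrimal samples 3 calls were left, and H2-Ab1 (limma adjusted p = 0.111) and H2-DMb1 (0.0514) no longer passed. The H2-Ab1 call was also lost without submandibular sample 2, 3, 4 or 5 or lacrimal sample 3 or 5 (largest adjusted p = 0.0841).

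In NOD-scid mice 2 of 14 were lower in lacrimal gland, against 15.2% of all probe sets that passed in either direction and 8.05% as lower. None was higher. They were H2-Aa, from 1632 ± 101 (SD, n = 5) to 681 ± 201 (SD, n = 4), a difference of -1.27 (SE 0.20, limma adjusted p = 2.58e-04), and H2-Eb1 with -0.75 (SE 0.19, adjusted p = 0.0106). The samples of the glands were apart for 2 probe sets, both of H2-Aa, where 8.29% of all probe sets were lower without overlap. H2-Eb1 did not pass in 1 fit of all 39 samples (adjusted p = 0.109). H2-Aa and H2-Eb1 both passed with any 1 sample left out in turn (largest limma adjusted p = 0.0400, for H2-Eb1). Cd74 had a difference of -0.07 (SE 0.16) and H2-Ab1 of -0.05 (SE 0.35). The difference between the strains in the gland effect was 0.66 for Cd74 (SE 0.22, adjusted p = 0.281) and 1.08 for H2-Ab1 (SE 0.48, adjusted p = 0.474). Neither passed, and limma called 0 of 14 members, against 0.328% of all probe sets; at an unadjusted p under 0.05 there were 2 higher (4.93% of all) and 1 lower (4.82%), the lower being Ctss.

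Of a list of 18 macrophage markers 14 were tested between the glands. In B6-scid lacrimal gland 1 was called higher and 1 lower (median -0.043), where 11.4% of all probe sets were called, and in NOD-scid lacrimal gland none higher and 3 lower (median -0.50), where 15.2% were. Csf1r, the receptor of a macrophage growth factor, fell in lacrimal gland by 0.90 in B6-scid (SE 0.17, limma adjusted p = 0.00128) and by 0.68 in NOD-scid mice (SE 0.18, adjusted p = 0.0129), and passed in neither in 1 fit of all 39 samples (0.0738 and 0.219). Fcgr1, an antibody receptor, was called higher in B6-scid mice, and C1qa, a complement chain, and Cd14, which binds endotoxin, were called lower in NOD-scid mice. The Fcgr1 call was lost without any 1 of 5 samples (largest adjusted p = 0.0704) and the Cd14 call without any 1 of 7 (largest 0.102). The part of macrophage number in the gland differences was not tested.

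Of the list of class II loading and processing, 17 of 18 genes were tested. In B6-scid lacrimal gland 3 passed as higher and 1 as lower, where the shares over the whole arrays were 5.25% and 6.14%. In NOD-scid lacrimal gland 1 passed as higher and 4 as lower, where those shares were 7.15% and 8.05%. For none of the 17 did the difference between the strains in the gland effect pass, so a change of direction between strains was not shown. H2-Ob, the partner chain of H2-Oa, was among those called higher in B6-scid mice. It read 224 to 631 in lacrimal gland and 20.7 to 94.2 in submandibular gland, under the minimum of 100 in all 5 samples there, so the size of its difference depends on the pseudocount (1.83 to 2.53 on the log2 scale with 64 and 16). The genes of both lists are named here after their values were seen.

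**Figure D3:**
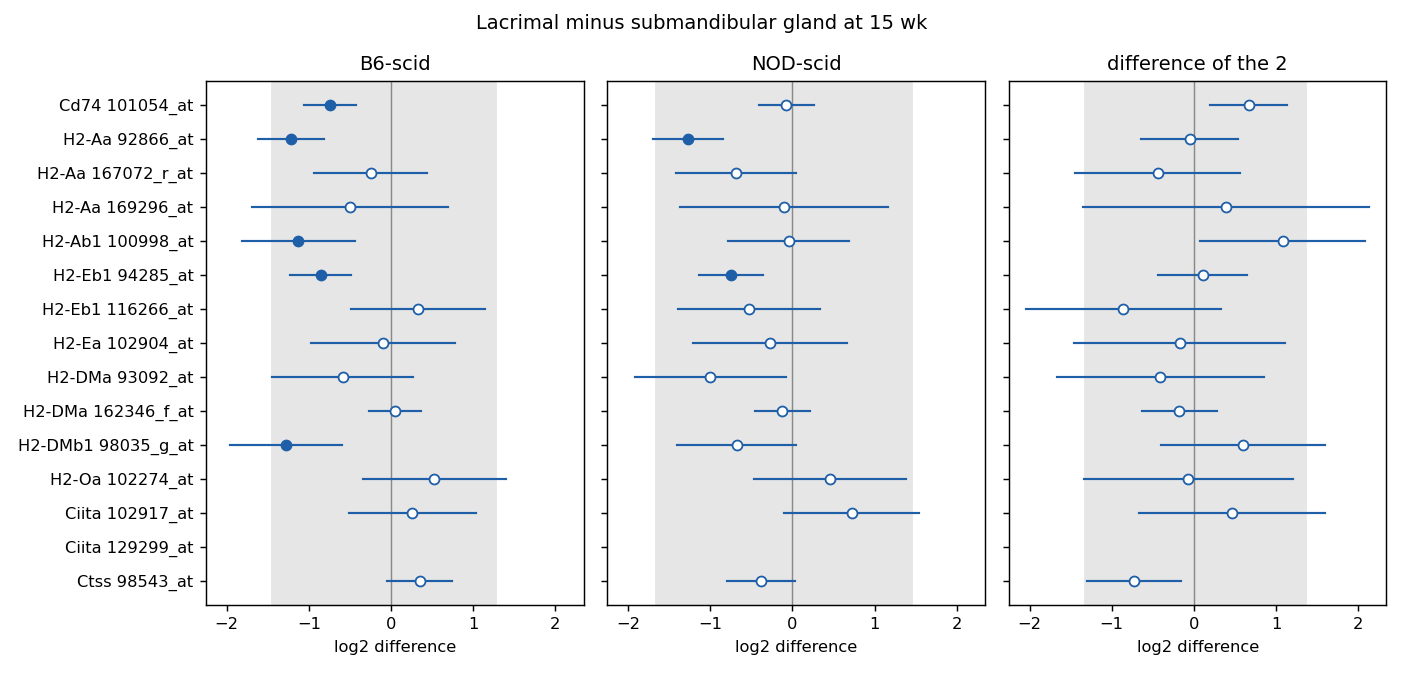
Lacrimal minus submandibular gland at 15 weeks (log2, horizontal axis) in B6-scid and NOD-scid mice, and the difference of those 2 effects, with 95% intervals. Filled circles passed the test (5 probe sets in B6-scid, 2 in NOD-scid, none in the interaction), and the grey band holds the central 95% of all probe sets tested.

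Other genes of loading and processing were read from a list of 18, of which 17 were tested in every strain comparison. In pancreas 1 was called lower and none higher, with a median of -0.21 over the 17. The called gene was Ctsl, a cathepsin that can also trim the invariant chain. The B6-scid samples read 5467, 7279, 6763, 8023 and 8159.7 and the NOD-scid samples 1603, 1457, 1820, 2019 and 1723. The difference was -2.02 (SE 0.16, limma adjusted p = 1.19e-04), with no overlap. In submandibular gland Ctsl had -0.69 (SE 0.18, adjusted p = 0.0653) at 9 weeks and -0.67 (SE 0.18, adjusted p = 0.119) at 15 weeks, and in lacrimal gland -0.19 (SE 0.16, adjusted p = 0.628).

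Ctsz, a carboxypeptidase of the lysosome, was the 1 of 17 called at 9 weeks in submandibular gland (-0.56, SE 0.14, limma adjusted p = 0.0463). That call was lost when any 1 of 19 of the 20 samples of its fit was left out (largest adjusted p = 0.120). No gene of the list passed at 15 weeks in submandibular or in lacrimal gland, where the median of the 17 was 0.00 and -0.43. Ifi30, the lysosomal thiol reductase that opens disulfide bonds of antigens, fell with age in NOD-scid submandibular gland, and is named here after its values were seen. It read 3533, 2382, 2304, 4405 and 3455 at 9 weeks and 1166, 1399, 702, 741 and 1858 at 15 weeks. The difference was -1.48 (SE 0.35, limma adjusted p = 0.0446). It did not pass without the samples numbered 4 and 5 (adjusted p = 0.179) or without any 1 of 12 of the 20 samples left out in turn (largest adjusted p = 0.122). In B6-scid, Ifi30 read 1262 to 3264 at 9 weeks and 571 to 2635 at 15 weeks and was not called. No probe set passed the strain by age test, so a fall particular to NOD-scid was not shown.

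**Figure D4:**
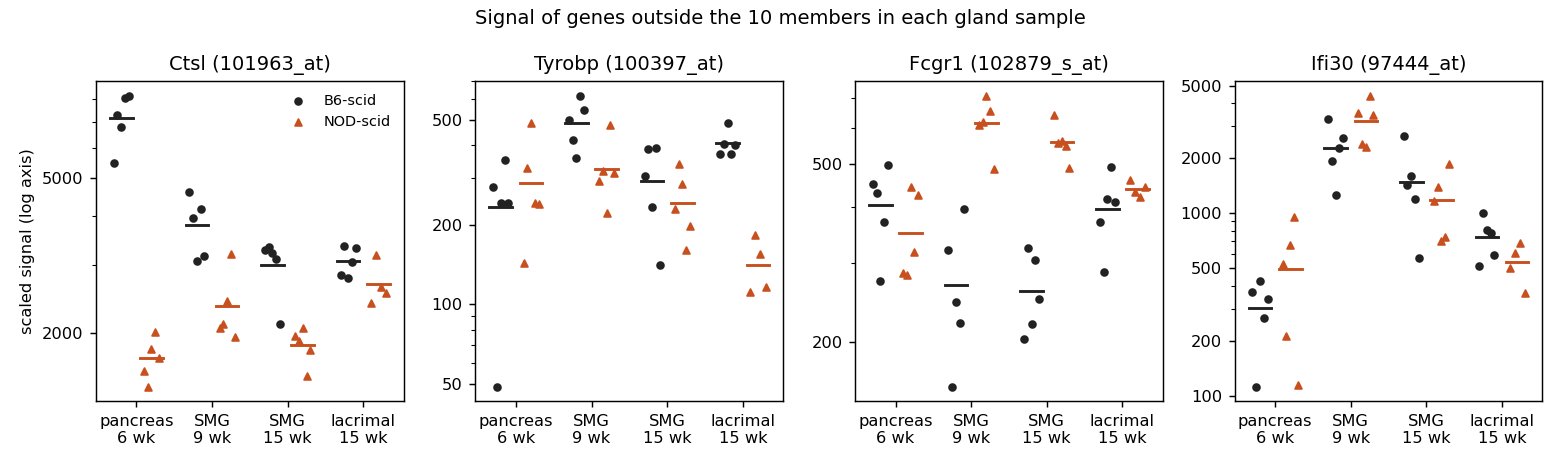
Scaled signal (arbitrary units, log axis) of Ctsl, Tyrobp, Fcgr1 and Ifi30 in each gland sample, drawn as for the class II genes. The Ctsl samples of pancreas are apart by strain, with 1457 to 2019 in NOD-scid and 5467 to 8159.7 in B6-scid.

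Of the genes that transcribe class II and carry interferon gamma signals, 22 of 24 were on the arrays and 19 or 20 were tested in each gland. None was called in a strain comparison, with list medians of 0.04, -0.17, -0.15 and -0.06 from pancreas to lacrimal gland. Ifng itself had group means of 8.19 to 23.7. Rfx5, a subunit of the factor that binds the X box, gave group means from 2048 to 3579. Of 9 genes of co-stimulation and class II receptors on the arrays, 5 to 8 were tested and none was called.

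Markers of other cells moved with some of these results. All 11 pan-leukocyte genes had a difference below 0 at 15 weeks in submandibular gland, beside 48.9% of all probe sets tested (medians -0.44 and 0.009). Lcp1, an actin-bundling protein of leukocytes, was the 1 called (-0.79, SE 0.17, limma adjusted p = 0.0325), where 0.37% of all were called lower. The summed signal of the 11 genes was 5595 to 6814 in B6-scid and 4240 to 5532 in NOD-scid, ranges that do not overlap. At 9 weeks the sums were 4910 to 6619 and 4325 to 5139, which overlap. In lacrimal gland the sums were 4879 to 6079 and 3842 to 4757, and Tyrobp, an adaptor of myeloid cells, fell from 407 ± 47.9 (SD, n = 5) to 141 ± 33.7 (SD, n = 4), a difference of -1.36 (SE 0.18, adjusted p = 0.00747; 0.0364 without the 2 salivary-rich samples). Lcp1 did not pass without B6-scid sample 3, 4 or 5 or NOD-scid sample 1, 2, 3 or 5 of 15 weeks (largest adjusted p = 0.122), nor without the 9-week samples numbered 4 and 5 (0.0579). At 9 weeks 1 of 11 was called, where 0.625% of all probe sets were called lower. It was Cd52, a surface glycoprotein of leukocytes (-0.79, SE 0.18, limma adjusted p = 0.0372). Cd52 did not pass without any 1 of 5 samples (largest 0.0928) or without those numbered 4 and 5 (0.176). In pancreas none of 9 was called. The part of leukocyte number in the Ctss and Cd74 differences was not tested.

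Of 15 macrophage markers tested at 15 weeks in submandibular gland, none was called lower (median -0.27) and 1 was called higher, Fcgr1, a high-affinity antibody receptor, with 489.8 to 643 in NOD-scid against 203 to 324 in B6-scid (1.03, SE 0.19, limma adjusted p = 0.00903); at 9 weeks it had 1.15 (SE 0.19, adjusted p = 0.00269), or 0.0615 with the 9-week groups fitted alone. The summed macrophage signal at 15 weeks in submandibular gland was 7873 to 9715 in B6-scid and 8675 to 9364 in NOD-scid. In lacrimal gland it was 6812 to 9680 and 6601 to 6802, ranges that narrowly do not overlap. There 10 of 13 macrophage markers tested had a difference below 0, beside 48.5% of all probe sets (medians -0.35 and 0.02), and none was called. Dendritic cell sums overlapped in every gland, with 9 to 11 of 14 genes tested and 1 called, Bst2, at 9 weeks in submandibular gland (-1.26, SE 0.28, adjusted p = 0.0268). Bst2 did not pass without any 1 of 4 samples (B6-scid 4 or 5, NOD-scid 1 or 4), nor without those numbered 4 and 5 (adjusted p = 0.232). Of 9 T cell markers on the arrays, 2 to 4 had a mean of at least 100 in each group, Zap70 and Cd6 in all 8, whereas Cd3d, Cd3g, Cd8a, Cd2 and Cd5 had means below 100 in all 8. No T, B or NK cell, neutrophil or mast cell, lymph node stroma, endothelium, pancreas acinar or submandibular marker was called between strains.

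Among the markers of gland epithelium, just Krt7 and Pigr were called between strains. No duct marker was called of 6 at 15 weeks in submandibular gland or of 8 in pancreas. Over all probe sets, 0.668% were called lower in lacrimal gland, 0.625% at 9 weeks in submandibular gland and 0.411% in pancreas. Krt7, a keratin of duct epithelium, was the 1 of 6 duct markers called in lacrimal gland and at 9 weeks in submandibular gland, lower in NOD-scid in both, as was Ctss. In lacrimal gland it read 236 to 352 in B6-scid and 65.7 to 154 in NOD-scid (-1.40, SE 0.23, limma adjusted p = 0.0201), and it did not pass without the salivary-rich samples (0.0942) or without NOD-scid sample 1, 3 or 4 (largest 0.0660). At 9 weeks it read 1191 to 1824 and 701 to 984 (-0.75, SE 0.16, adjusted p = 0.0262), and it did not pass without the samples numbered 4 and 5 (0.137), with the 9-week groups fitted alone (0.154) or without any 1 of 4 samples (largest 0.0699). The summed duct signal was 15537 to 36931 in B6-scid and 11155 to 13469 in NOD-scid lacrimal gland, and 21081 to 26772 and 13463 to 19008 in pancreas, without overlap in either, and it overlapped in submandibular gland at both ages. Pigr, which carries antibody across epithelium and stood on the lacrimal list, was the 1 of 4 called in pancreas, with 11839 to 17313 in B6-scid and 1898 to 3302 in NOD-scid (-2.34, SE 0.18, adjusted p = 1.18e-04). The part of epithelial content in the Ctss and Ctsl differences was not tested.

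Outside the class II genes, the probe sets most like Cd74 after group means were taken off, over 39 samples and 27353 probe sets searched, were those of Atf6, Cd47, Rprd2, Emc10 and Cdk16, with correlations from 0.65 to 0.69. Those most like H2-Aa were Zfp91, Sin3b, Rdm1, Gm9519 and Lmo4, from 0.64 to 0.65. Each was picked as among the highest of the 27353 searched, which by itself raises the correlation. Whether unrelated probe sets would reach such values was not tested. With group means also taken off, the Cd74 and Ctss probe sets correlated with each other at 0.36, and H2-Aa and Ctss at 0.46. These pairs were not picked by a search, so their values cannot be ranked against those above. These are descriptions of arrays that share their hybridisation and scaling.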

How the data were processed

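Gland RNA was labelled as biotinylated cRNA and hybridised to 3 Affymetrix MG-U74v2 designs. The deposited intensity values are MAS5 signals, per the submitters' processing notes (version not given in the sources used here), and their trimmed means were almost equal on all arrays. Each array was rescaled here to a 2% trimmed mean of 500 and log2(signal + 32) was fitted with limma 3.58.1 in R 4.3.3, with a variance prior for each design and Benjamini-Hochberg adjustment over the 3 designs. Probe sets reaching 100 on at least 4 arrays of a fit were tested; of 36701, 29131 carry 1 gene symbol, 724 several and 6846 none. Symbols came from the platform annotation, updated by gene ID against RefSeq. Submandibular groups of both ages shared 1 fit, as did the 15-week submandibular and lacrimal groups; the other comparisons used their 2 groups. The members, gene lists and tests were chosen with earlier results of these data known. All member probe sets are described. By the rule set, list genes are named where they pass a strain comparison, at most 4 per list and comparison. List genes named for an age or gland comparison, or for their levels alone, fall outside that rule and were named with their values known. The lists were class II loading, class II transcription, co-stimulation and markers of leukocytes, macrophages, dendritic, B, T and NK cells, neutrophils and mast cells, lymph node stroma, endothelium, pancreas acini, submandibular gland, lacrimal gland and duct epithelium. Alternatives were another pseudocount, filter, normalization or fit, and leaving out samples. Deviations of same-numbered samples had no correlation above 0.1, and numbers were not taken as pairs, though this cannot exclude a shared mouse or batch. The script was tested on simulated data. The number of arrays limits precision.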

Additional observations from a re-analysis of the deposited data

Results flagged for a closer look

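In each of 120 combinations of probe set and group, the most extreme sample was set against the others. In 13 it lay so far off that the gap took up most of the range. The cutoffs flag about 5 percent, or 6, of normally distributed values. They were applied to signals without logs, whose distribution was not tested, so the 13 cannot be read as more than chance gives. No explanation was examined. Among design A probe sets, H2-Eb1 read 1949 in B6-scid submandibular sample 3 of 15 weeks (others 2546 to 2715) and 1612 in NOD-scid lacrimal sample 1 (others 837 to 884). H2-Oa read 104 in B6-scid lacrimal sample 2, a salivary-rich sample, against 344 to 441 in the others. H2-Ea read 146 in B6-scid lacrimal sample 4 (others 20.6 to 40.7), and Ciita 202 in NOD-scid pancreas sample 1 (others 47.8 to 92.5).

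The other 8 were on designs B and C or on the weaker H2-DMa probe set. H2-Eb1 on design B read 306 in B6-scid submandibular sample 1 of 9 weeks (others 25.1 to 43.8). Ciita on design C read 109.8 in B6-scid submandibular sample 2 of 15 weeks, 347 in NOD-scid submandibular sample 2 of 9 weeks and 119 in NOD-scid lacrimal sample 4. The weaker H2-DMa probe set was low in B6-scid lacrimal sample 1 (96.4, others 129 to 132) and B6-scid pancreas sample 3 (134, others 188 to 203). H2-Aa on design C was high in B6-scid pancreas sample 3 (243, others 21.1 to 76.2) and NOD-scid pancreas sample 1 (303, others 66.8 to 133).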

How the results depend on the processing

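The number of class II probe sets called moved by more than 1.5 times in 5 comparisons. At 9 weeks in submandibular gland it was 0 with only the 2 groups compared in the fit. At 15 weeks it was 0 with 1 variance prior over the 3 designs, a setting added after the data were seen, and 0 to 2 when samples were left out in turn. In lacrimal gland it was 0 with the replicate number as a block (Ctss -1.78, limma adjusted p = 0.0795; Tyrobp 0.1004). Between glands it was 3 in B6-scid mice without the salivary-rich samples and 1 in NOD-scid mice in 1 fit of all 39 samples. The replicate block also took the H2-Ab1 call between glands in B6-scid mice (limma adjusted p = 0.0688). Correlations of same-numbered samples lay between -0.0612 and 0.0853. Between the strains at 9 weeks in submandibular gland all of them were above 0 (0.0160 to 0.0853). Such values cannot show whether same-numbered samples shared a mouse or a batch. Left out in turn, samples gave counts of 0 in pancreas, 1 at 9 weeks, 1 in lacrimal gland, 4 to 5 between glands in B6-scid and 2 in NOD-scid mice. H2-Ab1 changed sign in pancreas when B6-scid sample 2 or 3 or NOD-scid sample 3 was left out (range -0.17 to 0.15) and in lacrimal gland without the salivary-rich samples (-0.011); none of these passed. With quantile normalization Klk1 changed sign with age in both strains (0.083 in B6-scid, 0.070 in NOD-scid) and Prol1 in NOD-scid (0.026). The replicate block also took the lacrimal Krt7 call (adjusted p = 0.110). The number of arrays per group, and signals near 100 for H2-Ea, Ciita and the probe sets of designs B and C, limit what these data can show.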
